A study of Mus musculus with 6 samples.

Results

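The genes described here encode the machinery that starts and carries out DNA replication: 47 genes for origin licensing, the replicative helicase, the DNA polymerases, the sliding clamp and its loaders, lagging-strand processing, fork protection, and nucleotide and histone mRNA supply. They were taken by exact gene symbol from a list, not by any measured value. All 47 were found among the 24062 symbols of the count table, and all 47 passed the filter on low counts that left 13990 genes for testing. RNA was sequenced from mouse embryonic fibroblasts, primary connective tissue cells of the C57BL/6 strain taken from embryos, in 6 libraries. In 3 libraries the cells overexpressed p27 from a lentivirus (p27OE), and 3 libraries were labelled EV control, all named for day 10. Titles of the controls have a dataset tag that is missing from those of p27OE. Nothing in the labels tells whether both groups were handled together, or whether replicates are separate cultures or embryos. The p-values therefore cover the spread among these libraries alone, part of which may be technical. The series design text calls the cells non-senescent, whereas the treatment protocol and the p27OE titles call them senescent. The promoter that drives p27 and the meaning of EV are not spelled out in the labels.

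Replication starts in 2 separate steps. In G1, the origin recognition complex with Cdc6 and Cdt1 loads the Mcm2 to Mcm7 ring onto DNA, and geminin (Gmnn) blocks Cdt1 once S phase has begun. At S phase entry the Cdc7 kinase with its activator Dbf4, together with cyclin-dependent kinases, recruits Cdc45 and the GINS complex, and the ring becomes an active helicase. The kinase inhibitor p27, encoded by Cdkn1b, restrains cyclin E and cyclin A kinases, and many replication genes are transcribed by E2F factors, which those kinases release from pocket proteins.

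Library totals ran from 39183624 to 61219345 counts. Levels are given as CPM, counts relative to the library total scaled by TMM factors, and differences as log2 fold changes from edgeR with their standard errors; a gene was called when its edgeR adjusted p was under 0.05 over all tested genes. Cdkn1b, the introduced gene, had 43.9, 31.5 and 32.3 CPM in EV control 1 to 3, and 166.6, 232 and 337 CPM in p27OE 1 to 3, the order used for all values here. Its level was higher in every p27OE library than in every control (log2 fold change 2.77 ± 0.29, SE; edgeR adjusted p = 0.028). Libraries of a group were not alike. The 4 Y-linked genes Ddx3y, Eif2s3y, Kdm5d and Uty together reached 0.125, 126 and 124 CPM in EV control and 1.95, 57.2 and 137 CPM in p27OE. The 12 fibroblast markers summed to 45240 to 64630 CPM in EV control and 50260 to 52610 CPM in p27OE, mostly from collagens, fibronectin and vimentin. Among them Dcn had 76.1, 11.2 and 8.28 CPM in EV control against 92.7, 25.2 and 8.43 CPM in p27OE. Lum had 77.6, 10.2 and 8.71 CPM against 85.4, 24.8 and 4.18 CPM, so both were highest in the libraries numbered 1. The collagens, Pdgfra and Pdgfrb were also highest there within each group, whereas Thy1 and Vim were lowest there. Fn1 was highest there in EV control and lowest in p27OE, and S100a4 the reverse. Of 15 macrophage markers, 14 were in the table and none was at 0 in every library. Their summed level was 108.5 CPM in EV control 1 against 20.8 and 27.5 CPM in the other controls and 21.3 to 41.2 CPM in p27OE. The 8 endothelial and 7 epithelial markers summed to at most 7.86 and 8.24 CPM in any library, and 1 of the endothelial markers was at 0 in all 6.

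Transcripts of the replication machinery were lower in p27OE cells across every role. All 47 log2 fold changes lay below 0, where 48.2% of all tested genes did, with a median of −0.64 against 0.01 over all tested genes. The lowest was that of Cdc7 at −1.08 and the highest that of Rpa1 at −0.08. For 39 of the 47 genes each p27OE library lay below each EV control library, a pattern found in 16.5% of all tested genes. The drop was not particular to replication genes. A list of 30 mitotic genes had a lower median, −0.89, and all 30 showed that pattern. Single-gene calls were few: 2 of the 47, Cdc7 and Pold3, fell (edgeR, adjusted p under 0.05), where 0.843% of tested genes were called lower, and 37 had an unadjusted p under 0.05 with a lower level, against 12.9% of tested genes. The 8 genes whose groups overlapped were Orc1, Orc6, Gins2, Gins4, Rpa1, Fen1, Rrm2 and Slbp. In bulk RNA, fewer cells in S phase and less of each transcript per cell cannot be told apart. The proliferation marker Mki67 lay lower too, at 206, 194 and 194 CPM in EV control and 137, 109 and 69.0 CPM in p27OE. Its part in these differences was not tested.

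**Figure D1:**
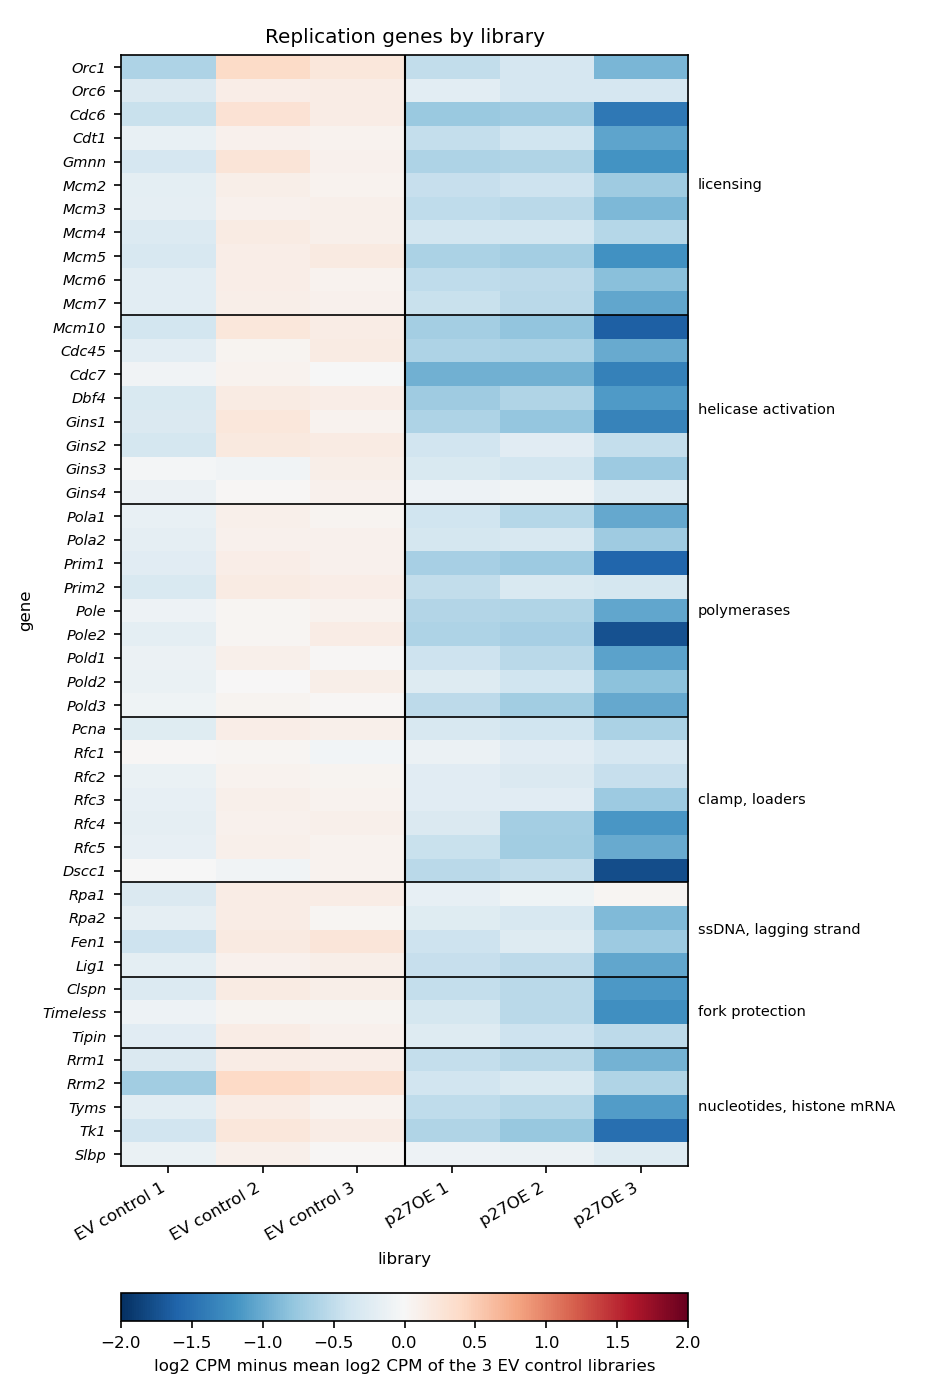
Level of each of the 47 replication genes (rows, grouped by role) in each library (columns), as log2 CPM minus the mean log2 CPM of the 3 EV control libraries; blue is lower and red is higher. p27OE 3 is the darkest column, and EV control 1 is pale blue for most genes, with a darker blue than in p27OE 1 and 2 for Orc1, Gins4, Rpa1, Fen1, Rrm2 and Slbp.

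**Figure D2:**
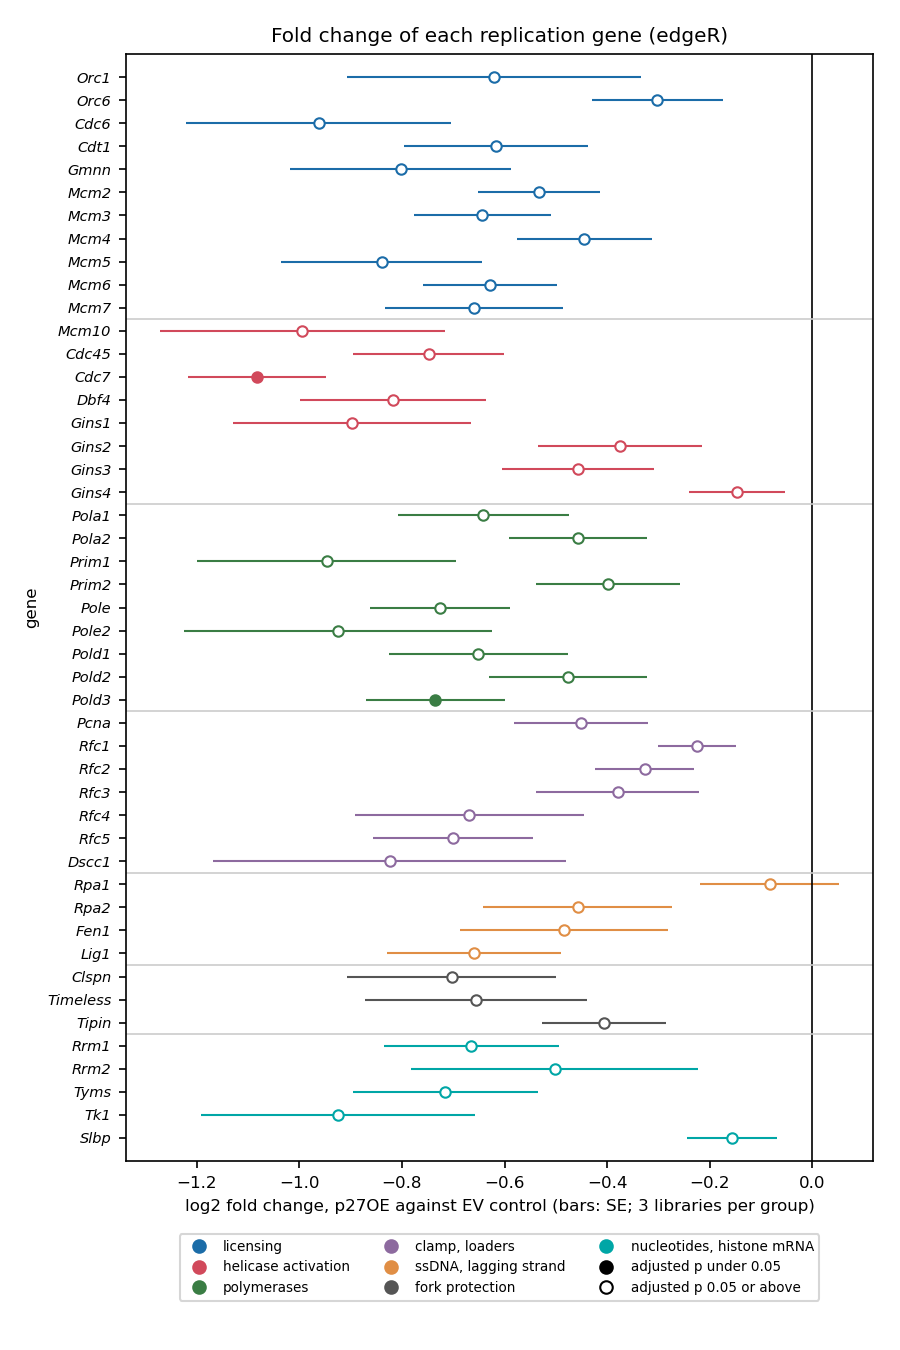
Log2 fold change of p27OE against EV control for each of the 47 genes (points; bars are the standard error, 3 libraries per group), coloured by role. All points lie below 0, and the filled points, Cdc7 and Pold3, are those with an edgeR adjusted p under 0.05.

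The 11 licensing genes had a median log2 fold change of −0.63. None was called by edgeR (0.843% of tested genes, lower), 9 had an unadjusted p under 0.05 (12.9%), and DESeq2 called 9 lower (7.72%). Cdc6, the ATPase that recruits the Mcm ring to the origin complex (chromosome 11, 98907801 to 98923940, GRCm38), was at 16.8, 27.9 and 25.3 CPM in EV control and 13.6, 13.9 and 8.48 CPM in p27OE. Its groups were separate but EV control 1 lay close to p27OE (−0.96 ± 0.26, SE; edgeR adjusted p = 0.0832). Cdt1, the loading factor, was at 25.2, 29.4 and 29.2 CPM and then 20.0, 21.2 and 13.5 CPM (−0.62 ± 0.18). Geminin, its inhibitor, was at 18.4, 27.5 and 24.5 CPM and then 15.02, 15.3 and 10.1 CPM (−0.80 ± 0.21). Inhibitor and target were both lower, and their log2 ratio, Gmnn to Cdt1, differed by −0.17 between groups (exact two-sided permutation test, p = 0.3), by −0.26 without EV control 1 and by −0.08 without EV control 2.

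Orc1 and Orc6, the subunits of the origin recognition complex among these genes, did not separate the groups. Orc1 was at 7.45, 14.9 and 13.4 CPM in EV control and 8.14, 9.08 and 6.06 CPM in p27OE (−0.62 ± 0.29, SE). EV control 1 lay below 2 of the 3 p27OE libraries. For Orc6 the values were 37.1, 49.4 and 50.04 CPM and then 38.98, 35.9 and 35.9 CPM (−0.30 ± 0.13), again with EV control 1 among the p27OE values.

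The Mcm2 to Mcm7 genes, whose products form the hexameric ring of the helicase, were all lower with separate groups (16.5% of tested genes). None was called (0.843% of tested genes, lower). Mcm3 (chromosome 1, 20802968 to 20820312) was at 95.7, 114.9 and 116 CPM in EV control and 76.2, 74.9 and 58.1 CPM in p27OE (−0.64 ± 0.13, SE; edgeR adjusted p = 0.0564). Mcm6 (chromosome 1, 128331590 to 128359664) was at 131.6, 167 and 159 CPM and then 106, 105 and 84.9 CPM (−0.63 ± 0.13; edgeR adjusted p = 0.0574). The other 4 subunits ranged from −0.44 ± 0.13 for Mcm4 to −0.84 ± 0.20 for Mcm5, with Mcm2 at −0.53 ± 0.12 and Mcm7 at −0.66 ± 0.17. Divided by the length of merged annotated exons, Mcm2 had the lowest level of the 6 in every library. That length was 6956 bases for Mcm2 against 3589 (Mcm4) to 4666 (Mcm6) for the rest, so these ranks depend on the annotation. On that scale the highest level of the 6 was 2.17, 2.22 and 2.17 times the lowest in the controls. In p27OE it was 2.15, 2.08 and 2.22 times the lowest. The top place per length went to Mcm6 in each control and to Mcm4 in each p27OE library. In undivided CPM, Mcm6 was highest in every library, and Mcm2 was lowest in EV control 2 and 3 alone. The summed level of the 6 genes was 137, 176 and 173 CPM per kilobase in the controls and 115, 113 and 88.0 in p27OE.

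**Figure D3:**
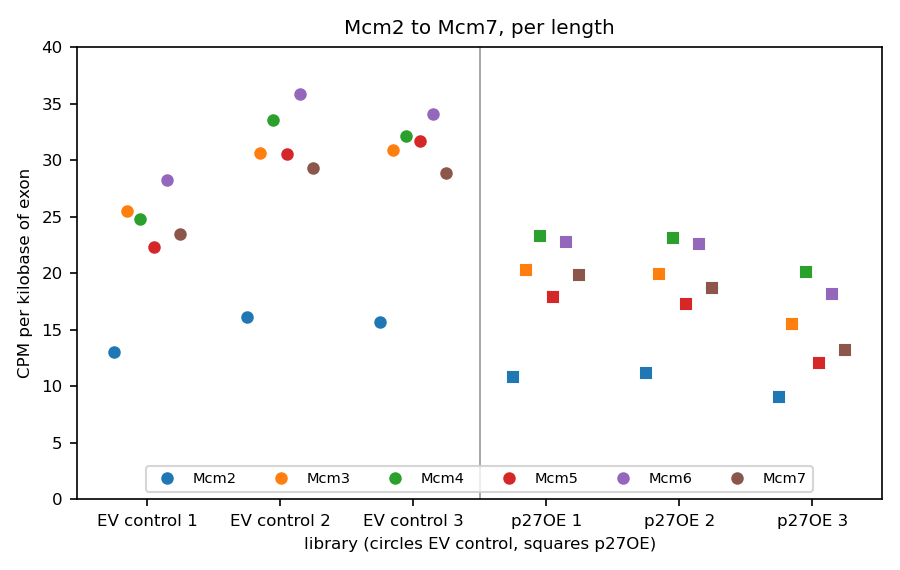
CPM per kilobase of annotated exon (y axis) of Mcm2 to Mcm7 in each library (x axis; circles EV control, squares p27OE). Every subunit is lower in each p27OE library than in each control. On this scale, which depends on the annotated exon length, Mcm2 is lowest throughout. Mcm4 is the highest of the 6 in p27OE in place of Mcm6.

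Promoter letters of these genes are described because all 47 lay lower together. RefSeq promoter windows (GRCm38.p6, from 250 bases before to 50 after each start) were found for 37 of the 47 genes. They were searched on both strands for 4 forms of the E2F site, TTTCCCGC, TTTCGCGC, TTTGCCGC and TTTGGCGC, with hits allowed to overlap each other. At least 1 form was present in 15 of the 37, or 40.5%, against 3.22% of 16781 genes of the count table with a window and 2.6% of all RefSeq genes with one. Among licensing genes 7 of 9 held one (Orc1, Cdc6, Cdt1, Mcm3, Mcm5, Mcm6 and Mcm7), among polymerase genes 4 of 7, and among fork protection genes 1 of 2. Helicase activation and clamp genes each had 1 of 5, single-strand binding and lagging-strand genes 1 of 4, and nucleotide supply and histone mRNA genes 0 of 5. Of 37 further replication genes with a window, 24.3% held one. The letters TTTGAA, the core of the cell cycle homology region of mitotic promoters, were in 18.9% of the 37, against 17.6% of genes of the table and 73.9% of 23 mitotic genes, while 4.35% of those mitotic genes held an E2F form. CCAAT was in 59.5% of the 37 and 42.1% of genes of the table. The 15 genes with an E2F form had a median log2 fold change of −0.65 and the 22 without one −0.59, a gap of less than 0.1 that was not tested. A match is only a run of letters, and no binding was measured here.

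The 4 stretches below are shown because these genes had the smallest p among those described here that hold an E2F form, which is in capitals on the gene's own strand (a site on the other strand reads as GCGGGAAA, GCGCGAAA, GCGGCAAA or GCGCCAAA). Mcm6 (chr1:128359706-128359855, minus strand) and Mcm5 (chr8:75109319-75109468, plus strand) carry overlapping forms upstream of the start. In Pold3 (chr7:100121463-100121492, minus strand) and Mcm3 (chr1:20820265-20820294, minus strand) the forms lie just after the RefSeq start.
Mcm6: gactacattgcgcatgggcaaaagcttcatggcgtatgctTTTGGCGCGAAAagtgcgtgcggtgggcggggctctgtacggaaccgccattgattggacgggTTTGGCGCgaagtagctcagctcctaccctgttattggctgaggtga
Mcm5: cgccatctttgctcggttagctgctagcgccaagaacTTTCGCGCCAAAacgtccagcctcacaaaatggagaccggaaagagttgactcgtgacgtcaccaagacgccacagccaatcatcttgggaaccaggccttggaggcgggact
Pold3: gaagctgTTTCCCGCcggcgggagctacgg
Mcm3: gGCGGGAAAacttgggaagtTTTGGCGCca

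The genes that turn the loaded ring into a helicase held the largest difference. Cdc7, the kinase that phosphorylates the Mcm ring (chromosome 5, 106964322 to 106984432), fell from 16.4, 18.0 and 17.1 CPM in EV control to 8.81, 8.84 and 6.70 CPM in p27OE. The controls were close to each other and every p27OE library was far below them (log2 fold change −1.08 ± 0.14, SE; a fold of 0.472; edgeR adjusted p = 0.0303). Leaving out EV control 1 kept the call, and leaving out any other library ended it, with edgeR adjusted p up to 0.189 while the value stayed between −1.16 and −0.96. Its activator gene Dbf4 was at 47.3, 65.2 and 64.1 CPM and then 35.6, 38.2 and 26.5 CPM (−0.82 ± 0.18, SE; edgeR adjusted p = 0.0643). The log2 ratio of Dbf4 to Cdc7 was 1.52, 1.86 and 1.91 in the controls and 2.01, 2.11 and 1.98 in p27OE, a difference of 0.27 with no overlap (exact two-sided permutation test, p = 0.1, the smallest that 3 against 3 libraries allow). Without EV control 1 the difference was 0.15.

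Cdc45, which travels with the helicase (chromosome 16, 18780447 to 18811987), was at 25.9, 31.4 and 33.6 CPM in EV control and 19.6, 19.4 and 15.04 CPM in p27OE (−0.75 ± 0.15, SE; edgeR adjusted p = 0.0522). Mcm10, needed to activate the assembled helicase, was at 18.8, 28.3 and 26.8 CPM and then 15.2, 14.1 and 7.86 CPM (−0.99 ± 0.28). Both separated the groups, and Mcm10 was lowest in p27OE 3 by a wide margin. The log2 ratio of Mcm10 to Mcm2 differed by −0.50 (exact permutation test, p = 0.1), and by −0.29 without p27OE 3. The 4 GINS subunits, which assemble in equal numbers, were not tested against each other. Gins1 was at −0.90 ± 0.23, Gins3 at −0.46 ± 0.15, Gins2 at −0.37 ± 0.16 and Gins4 at −0.15 ± 0.09. Gins1 was at 6.90, 9.90 and 8.91 CPM in EV control and 5.50, 4.94 and 3.36 CPM in p27OE, with separate groups. Gins4 was at 30.9, 34.2 and 35.8 CPM and then 31.3, 32.1 and 27.7 CPM, with overlap. In the GENCODE annotation 67.3% of the exon length of Gins2 overlaps Gse1 on the other strand, and the strand setting of the counting is not given, so its count is uncertain.

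All 9 polymerase and primase genes separated the groups (16.5% of tested genes, lower) and had an unadjusted p under 0.05 (12.9%), and 1 was called (0.843%). Pold3, an accessory subunit of polymerase delta (chromosome 7, 100082111 to 100121565), fell from 26.5, 29.4 and 28.7 CPM in EV control to 19.5, 17.4 and 13.9 CPM in p27OE (log2 fold change −0.73 ± 0.14, SE; edgeR adjusted p = 0.0495). That call stood at the threshold. It was lost with RLE, upper-quartile or total-count scaling and when any library other than EV control 1 was left out. Pole, the leading-strand catalytic subunit (chromosome 5, 110286306 to 110337474), was at 36.2, 39.9 and 40.8 CPM and then 25.99, 25.7 and 19.0 CPM (−0.73 ± 0.14; edgeR adjusted p = 0.0506). Its partner Pole2 was at 10.5, 12.4 and 13.2 CPM and then 7.83, 7.59 and 3.58 CPM (−0.92 ± 0.30). Pole and Pole2 were lower by like amounts in p27OE 1 and 2, and Pole2 was lower still in p27OE 3. The log2 ratio of Pole2 to Pole differed by −0.27 (exact permutation test, p = 0.3), and by −0.04 without p27OE 3.

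Primase has a catalytic and a large subunit. Prim1, the catalytic one that makes the RNA primer, was at 22.3, 28.5 and 27.6 CPM in EV control and 16.4, 15.6 and 8.60 CPM in p27OE (−0.95 ± 0.25, SE). Prim2, the large one, was at 23.9, 32.8 and 32.3 CPM and then 20.8, 23.8 and 22.9 CPM (−0.40 ± 0.14). In p27OE 3 the level of Prim1 was the lowest of all libraries and that of Prim2 was not. The log2 ratio of Prim2 to Prim1 was 0.10, 0.20 and 0.23 in the controls and 0.34, 0.61 and 1.41 in p27OE, a difference of 0.61 without overlap (exact permutation test, p = 0.1) that became 0.30 without p27OE 3. Pola1 and Pola2, the polymerase subunits that work with primase, were at −0.64 ± 0.17 and −0.46 ± 0.13. Pold1, the catalytic subunit of polymerase delta, was at −0.65 ± 0.17 and its partner Pold2 at −0.48 ± 0.15.

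The sliding clamp and clamp loader genes had a smaller median, −0.45. None of the 7 was called by edgeR (0.843% of tested genes, lower), 5 had an unadjusted p under 0.05 (12.9%), and DESeq2 called 3 lower (7.72%). Pcna, the clamp that holds polymerases on DNA, was at 125, 161 and 158 CPM in EV control and 118, 111 and 95.4 CPM in p27OE (−0.45 ± 0.13, SE). EV control 1 lay just above the p27OE libraries. The small loader subunit gene Rfc5 was at 26.7, 32.1 and 31.5 CPM and then 22.0, 18.6 and 14.995 CPM (−0.70 ± 0.16; edgeR adjusted p = 0.0641). Rfc4 was at −0.67 ± 0.22, Rfc3 at −0.38 ± 0.16 and Rfc2 at −0.33 ± 0.10. Rfc1, the large subunit, was at 75.5, 76.2 and 71.4 CPM and then 68.3, 63.7 and 58.9 CPM (−0.22 ± 0.08), a small difference with separate groups. Dscc1, a subunit of an alternative loader linked to sister chromatid cohesion, rested on 48 to 228 counts per library and was at −0.82 ± 0.34. Exons of Rfc2, Rfc4 and Rfc5 overlap a gene on the other strand over 15.1%, 12.7% and 10.7% of their length. The annotation also holds 2 Pcna pseudogenes that the count table does not, and how reads shared with them were handled is not given.

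Among the single-strand binding and lagging-strand genes, Lig1 had the lowest log2 fold change and Rpa1 the highest. Of these 4, edgeR called 0 (0.843% of tested genes, lower), 2 had an unadjusted p under 0.05 (12.9%), and DESeq2 called 1 lower (7.72%). Lig1, the ligase that joins Okazaki fragments, was at 57.3, 69.8 and 71.2 CPM in EV control and 47.9, 45.6 and 32.1 CPM in p27OE (−0.66 ± 0.17, SE). Rpa1, the large subunit of the single-strand binding protein, was at 102, 140 and 139 CPM and then 113, 119 and 129 CPM (−0.08 ± 0.14). EV control 1 was the lowest of all 6 libraries for Rpa1. Its partner Rpa2 was at 31.5, 39.6 and 36.5 CPM and then 30.3, 28.7 and 19.3 CPM (−0.46 ± 0.18), with EV control 1 only just above p27OE 1. Fen1, the flap nuclease, was at −0.48 ± 0.20 with overlapping groups, and 78.8% of its exon length overlaps another annotated gene on the opposite strand.

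The 3 fork protection genes each had an unadjusted p under 0.05 (12.9% of tested genes, lower) and separate groups (16.5%); edgeR called 0 (0.843%) and DESeq2 called 3 lower (7.72%). Claspin (Clspn), which links stalled forks to checkpoint kinase activation, was at 33.0, 44.5 and 43.2 CPM in EV control and 28.6, 27.5 and 18.0 CPM in p27OE (−0.70 ± 0.20, SE). Timeless was at 27.5, 30.9 and 30.7 CPM and then 23.3, 20.4 and 12.7 CPM (−0.66 ± 0.22). Its binding partner Tipin was at 35.9, 46.2 and 44.4 CPM and then 34.9, 31.4 and 29.2 CPM (−0.41 ± 0.12). p27OE 1 was only slightly under EV control 1 for Tipin, and p27OE 3 was lowest for all 3 genes.

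The 5 nucleotide supply and histone mRNA genes included the widest spread among controls. Tyms, thymidylate synthase, was at 49.2, 63.1 and 60.1 CPM in EV control and 40.2, 38.4 and 26.4 CPM in p27OE (−0.72 ± 0.18, SE; edgeR adjusted p = 0.0748); a Tyms pseudogene is also in the table, so shared reads are uncertain. Tk1, the cytosolic thymidine kinase, was at 68.3, 103 and 98.8 CPM and then 58.8, 52.7 and 31.1 CPM (−0.92 ± 0.27). Both separated the groups, as did Rrm1, the large subunit of ribonucleotide reductase, at 207, 281 and 278 CPM and then 181, 172 and 131 CPM (−0.66 ± 0.17; edgeR adjusted p = 0.0763). Rrm2, the small subunit that limits the enzyme in S phase, was at 108, 230.1 and 217 CPM and then 135, 142 and 115 CPM (−0.50 ± 0.28). EV control 1 had less Rrm2 than any p27OE library, while the other controls had more than any of them. Slbp, which binds the stem-loop of replication-dependent histone mRNAs, was at −0.16 ± 0.09 with overlap. Of the 5 genes, edgeR called 0 (0.843% of tested genes, lower), 3 had an unadjusted p under 0.05 (12.9%), and DESeq2 called 3 lower (7.72%).

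A further 44 genes of the replication machinery outside the 47 gave a median log2 fold change of −0.46. Of these, 41 lay below 0 (48.2% of tested genes) and 3 above, and edgeR called 3 lower (0.843% of tested genes). Dut, the dUTPase that keeps uracil out of DNA, fell from 65.7, 88.6 and 81.8 CPM to 40.6, 46.0 and 37.9 CPM (−0.92 ± 0.13, SE; edgeR adjusted p = 0.0346). Mcmbp, an Mcm binding protein, fell by 0.44 ± 0.07 on the log2 scale (edgeR adjusted p = 0.044), and Pole4, a small subunit of polymerase epsilon, by 0.57 ± 0.09 (edgeR adjusted p = 0.0442). Leaving out any library other than EV control 1 left none of the 44 called.

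The 3 genes above 0 were Pold4, Rrm2b and Tk2, and each was higher in every p27OE library than in every control, as were 16.8% of all tested genes. Pold4, a small subunit of polymerase delta, was at 25.2, 22.7 and 20.3 CPM in EV control and 32.5, 30.6 and 31.6 CPM in p27OE (0.47 ± 0.10, SE; edgeR adjusted p = 0.0559), while Pold1, Pold2 and Pold3 were lower. Rrm2b, the p53-inducible form of the small reductase subunit, was at 9.93, 11.6 and 11.3 CPM and then 12.7, 14.005 and 17.2 CPM (0.42 ± 0.14). Tk2, the mitochondrial thymidine kinase, was at 13.8, 12.4 and 13.1 CPM and then 14.9, 16.0 and 16.6 CPM (0.27 ± 0.09). The log2 ratio of Rrm2 to Rrm2b was 3.44, 4.31 and 4.26 in the controls and 3.41, 3.34 and 2.74 in p27OE, a difference of −0.84 with EV control 1 close to p27OE 1 (exact permutation test, p = 0.1). That of Rrm2 to Rrm1 differed by 0.24 (p = 0.4, exact permutation test), by 0.03 without EV control 1 and by 0.35 without EV control 2. Over the 7 ratios compared, Benjamini-Hochberg adjusted p was at least 0.175.

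**Figure D4:**
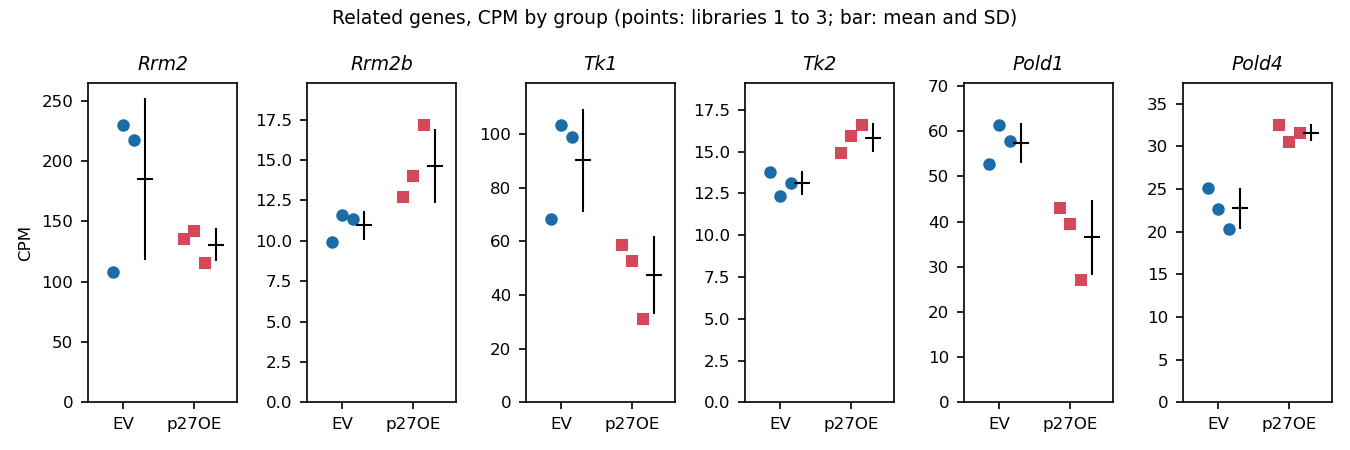
CPM (y axis, from 0) of Rrm2 and Rrm2b, Tk1 and Tk2, and Pold1 and Pold4 in the EV control (circles) and p27OE (squares) libraries 1 to 3, with mean and SD beside each group. Rrm2b, Tk2 and Pold4 are higher in each p27OE library than in each control, Tk1 and Pold1 are lower, and Rrm2 overlaps because EV control 1 is low.

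The size of the difference was not the same in each library. Relative to the control mean, the median of the 47 genes on the log2 scale was −0.21, 0.12 and 0.09 across EV control 1 to 3, and −0.46, −0.53 and −0.999 across p27OE 1 to 3. EV control 1 was the lowest control for 44 of the 47 genes and p27OE 3 the lowest p27OE library for 44. Between the libraries of low Y-linked level, p27OE 1 minus EV control 1, the median was −0.24. Of the 47 genes 40 lay below 0, against 7032 of 13990 tested genes. Between those of high level, p27OE 3 minus the mean of EV control 2 and 3, the median was −1.09. All 47 lay below 0, against 6687 of 13990 tested genes. Each of the 47 was also lower than in the first difference, as were 6763 of the 13990. p27OE 2, with an intermediate Y-linked level, gave −0.63 against the same controls. The same order held for mitotic genes, at −0.36, −1.49 and −0.86, and not for all tested genes, at −0.002, 0.03 and 0.02. In the first difference Cdc7 was the most negative of the 47, at −0.90, and it was at −1.38 in the second. Rrm2 went from 0.32 to −0.96 and Orc1 from 0.13 to −1.22.

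**Figure D5:**
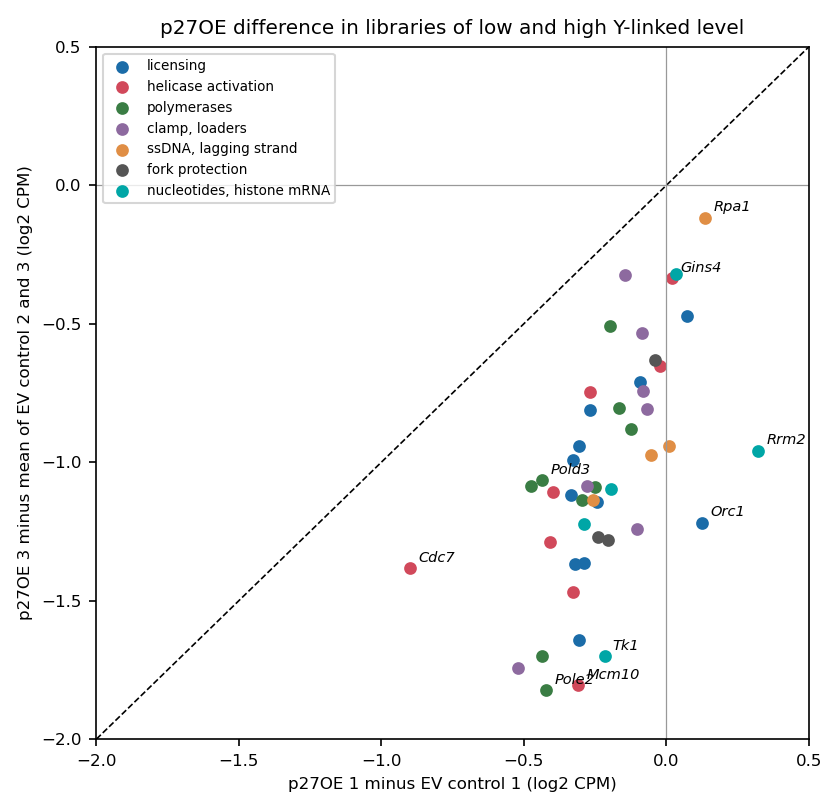
Each point is 1 of the 47 genes: the difference p27OE 1 minus EV control 1 (x axis, log2 CPM) against p27OE 3 minus the mean of EV control 2 and 3 (y axis, log2 CPM), with the line of equality dashed. All points lie below the line, and Cdc7 is the only one left of −0.6 on the x axis.

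An edgeR model with an interaction of group and Y-linked level called 38 of the 47 genes, all with a more negative p27OE difference at a higher level, where 4.94% of tested genes were called in that direction. The smallest adjusted p values were those of Rrm1 (−0.96 log2 units from no Y-linked signal to that of the highest library; edgeR adjusted p = 0.000651) and Rrm2 (−1.41; edgeR adjusted p = 0.000673). The same term called 30 of 30 mitotic genes and 20 of the 44 further replication genes, all negative, so it was not particular to the 47. It also called 11 of 14 macrophage markers and 7 of 12 fibroblast markers, where 9.29% of tested genes were called in either direction. Of the macrophage markers, 12 were positive at an unadjusted p under 0.05. Their part in the result was not tested. This term rests on 1 library of low level in each group and leaves 2 residual degrees of freedom. In p27OE the Cdkn1b level (166.6, 232 and 337 CPM) ran in the same order as the Y-linked level, and Cdkn1b itself was called in the interaction (1.53; edgeR adjusted p = 3.643e-05), so the dose of p27 and the Y-linked level cannot be told apart.

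With a Y-linked covariate beside the group, edgeR called 37 of the 47 genes lower, where 16% of tested genes were called lower, and 0 higher. The 10 genes not called were Orc1, Orc6, Gins2, Gins4, Rfc3, Rpa1, Rpa2, Fen1, Rrm2 and Slbp. Of the other 44 genes, 31 fell and 3, Pold4, Rrm2b and Tk2, rose in that model, where 18% of tested genes rose. Other fits gave counts that are to be read against their own background: DESeq2 called 32 of the 47 lower (7.72% of tested genes), edgeR without EV control 1 called 25 (6.75%), edgeR without both libraries numbered 1 called 36 (8.9%), and edgeR with the replicate number as a block called 28 (8%). Leaving out any single library other than EV control 1 left 0 of the 47 called by edgeR, with 30 to 38 at an unadjusted p under 0.05, and in those fits 0 of all tested genes were called lower. In EV control 1, where macrophage markers were highest, the replication genes were the lowest of the controls; without that library the median log2 fold change was −0.74. The part of the macrophage markers in that level was not tested. EV control 2 and 3 were close to each other, with a chi-square per gene of 6.492 between them. Against EV control 1 it was 182.8 for EV control 2 and 138.4 for EV control 3. Fits without EV control 1 therefore took the spread among controls from a close pair, and their higher counts are to be read with that limit.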

How the data were processed

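RNA from 6 libraries of mouse embryonic fibroblasts was extracted on columns and prepared with a TruSeq RNA v2 kit, per the labels' protocols. The authors deposited raw integer counts of reads for each gene symbol. The submitters' processing notes name mm10, featureCounts 1.4.6, Subread, Bowtie2 2.2.6 and TopHat2 2.0.14; annotation, strand setting and filters are not given in the sources used here.

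Every column matched 1 sample by title. Genes were kept by filterByExpr, scaled by TMM and fitted on group alone under R 4.3.3 with the quasi-likelihood test of edgeR 4.0.16 (robust glmQLFit, then glmQLFTest; Benjamini-Hochberg over all kept genes). Standard errors of edgeR fold changes were derived, as the absolute log2 fold change divided by the square root of the quasi-likelihood F statistic. Library differences used log2 CPM with a prior count of 2. Coordinates and exon lengths are from GENCODE M21 (GRCm38, the mm10 assembly) by exact symbol; levels per kilobase use merged exons. Alternatives were other scalings and filters, DESeq2 1.42.0, limma-voom (limma 3.58.1), a replicate block, a Y-linked covariate, and omitted libraries. The code was tested on simulated counts. Those for the interaction model were given less spread between libraries than these data have, so they do not tell its error rate here.

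The members, gene lists, terms and alternatives were chosen with earlier results of these data known. Genes were named by rule: Cdkn1b, called members, the 2 members of smallest p per role, Mcm2 to Mcm7, ratio partners, and called further replication genes; Orc1, Orc6, the remaining members given by value, Pold4 and Tk2 were named after their values were seen. Same-numbered EV control and p27OE libraries deviated together with r = 0.669, 0.043 and 0.495 across genes. These values cannot decide whether such libraries are pairs, and the main fit did not treat them as paired.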

Additional observations from a re-analysis of the deposited data

Results flagged for a closer look

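The p27OE difference varied with the Y-linked level of the libraries. By the interaction term of the edgeR model, 38 of the 47 replication genes were called, all negative, where 4.94% of tested genes were called negative. The 5 smallest p were those of Rrm1 (−0.96 log2 units), Rrm2 (−1.41), Pcna (−0.71), Tk1 (−1.57) and Mcm7 (−0.96). Each value is the change in the p27OE log2 difference from no Y-linked signal to that of the highest library. The same term called 30 of 30 mitotic genes and 20 of the 44 further replication genes, all negative. It also called 11 of 14 macrophage markers and 7 of 12 fibroblast markers, where 9.29% of tested genes were called in either direction. EV control 1, the control of low Y-linked level, had 108.5 CPM of macrophage markers against 20.8 and 27.5 CPM in the other controls. Their part in the result was not tested. In p27OE the Cdkn1b level (166.6, 232 and 337 CPM) ran in the same order as the Y-linked level. Cdkn1b itself was called in the interaction (1.53, edgeR adjusted p = 3.643e-05), so the dose of p27 and the Y-linked level cannot be told apart. Each group had 1 library of low level, the model leaves 2 residual degrees of freedom, and the labels do not name the sex of the cells. Groups of 3 libraries are too small for a test of single outlying samples.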

How the results depend on the processing

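All 47 replication genes lay below 0 in each of the 17 fits, and their median stayed between −0.86 and −0.48. The 2 calls (0.843% of tested genes, lower) became 1, Cdc7, with RLE (0.751%), upper-quartile (0.801%) or total-count scaling (0.536%). There were 3 with no filter (0.676%) or limma-voom (0.958%), and 4 with at least 1 CPM in 3 libraries (1.45%). The count was 36 without both libraries numbered 1 (8.9%), 32 with DESeq2 (7.72%) and 37 with a Y-linked covariate (16%). The 3 calls among the 44 further genes (2.61% of tested genes, either direction) became 5 with the 1 CPM filter (4.04%) and 27 without both libraries numbered 1 (16.7%). DESeq2 gave 26 (15.3%), and a Y-linked covariate gave 34, with 31 lower and 3 higher (34%). The replicate number as a block gave 28 of the 47 (8% of tested genes, lower) and 28 of the 44 (17.2%, either direction). EV control 2 correlated best with p27OE 3 (0.555), while EV control 1 and EV control 3 correlated best with their own number (0.669 and 0.495). With so few libraries per group, these correlations cannot decide whether the number is a pairing. Leaving out single libraries gave 0 to 25 and 0 to 23, the highest without EV control 1 (6.75% of tested genes lower, 12.9% in either direction). The cause was not tested. The interaction count of 38 ranged from 38 to 41 over other scalings and filters. No fold change of the 47 genes reversed. Depth limits Dscc1 most, with 48 counts in its lowest library.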
